A study of Mus musculus with 18 samples.

Results

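The genes described here are 10 members of the MHC class I antigen presentation pathway in the mouse: the heavy chains H2-K1, H2-D1 and H2-T23, the light chain B2m, the peptide transporter subunits Tap1 and Tap2, the loading factor Tapbp, the inducible proteasome subunits Psmb8 and Psmb9, and the transcriptional activator Nlrc5. They were taken by name, and all 10 were found among the 35727 gene IDs of the deposited table and passed the filter on low counts. RNA was measured in bulk in 18 libraries from 6 groups of 3 at day 7: lung iECs, lung native ECs and lung control fibroblasts, and heart iECs, heart native ECs and heart control fibroblasts. EC stands for endothelial cell, and the iEC libraries carry the title SEG, which the labels do not spell out. All cells were grown in EGM2, an endothelial growth medium, and the series set out to compare organ-specific endothelial identity. The strain, the way the iECs were made and the age of the animals were not given in the sources used here. The labels number 3 replicates per group without saying that they came from separate cultures or animals, so the p-values measure the spread between these libraries, which may be technical.

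MHC class I molecules show fragments of a cell's own proteins to CD8 T cells and are inspected by natural killer cells. The proteasome cuts proteins into peptides, Tap1 and Tap2 together pump these into the endoplasmic reticulum, and Tapbp (tapasin) holds the empty heavy chain at the transporter until a peptide fits, after which the heavy chain and B2m travel to the surface. Interferons raise most of these genes, in part by way of Nlrc5, which acts at class I promoters, and endothelial cells, which line the vessel wall that circulating T cells meet, are known to respond to interferon in this way.

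Each library held between 17747632 and 23775372 estimated counts. Levels are given as CPM, the count per 1000000 of the library total scaled by TMM, a factor that levels the bulk of genes between libraries. The labelled cell types were checked against marker genes, as summed CPM of each list over the 3 libraries of a group. The 12 endothelial markers summed to 1136 to 1219 in lung iECs, 3000.0 to 3064 in lung ECs and 87.4 to 92.1 in lung fibroblasts, and to 1307 to 1374 in heart iECs, 1961 to 2180.0 in heart ECs and 302 to 340.1 in heart fibroblasts. The 12 fibroblast markers summed to 11550 to 15500 in lung iECs, 5994 to 7229 in lung ECs and 35830 to 43790 in lung fibroblasts, and to 19360 to 21100 in heart iECs, 21200 to 22160 in heart ECs and 31850 to 33090 in heart fibroblasts. The 10 mesothelial markers summed to 107.3 to 120.4 in heart iECs, 438 to 641 in heart ECs and 60.2 to 81.6 in heart fibroblasts. The 8 epithelial markers summed to 165 to 187 in lung ECs, against 4.81 to 6.56 in lung fibroblasts. The 8 mural markers summed to 3219 to 3937 in lung iECs, 1363 to 2127 in lung ECs and 907.1 to 1247 in lung fibroblasts. In heart the mural sums were 1404 to 1591 in iECs, 463.6 to 603.2 in ECs and 304.6 to 346.5 in fibroblasts. The 16 macrophage markers summed to 3009 to 4391 in lung iECs, 8991 to 10880 in lung ECs and 1243 to 1590 in lung fibroblasts, while no heart library exceeded 450.0. In bulk RNA, fewer cells of a type and less RNA per cell cannot be told apart. The 13 T, B and NK cell markers summed to at most 6.93 CPM in any library, with Nkg7 and Ncr1 listed at 0 throughout.

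Of the 10 genes, 8 lie on chromosome 17 in the major histocompatibility complex (GRCm38 coordinates, GENCODE M21 annotation). Psmb9, Tap1, Psmb8 and Tap2 stand next to each other within 34.3 kb, at chr17:34181987-34216321. Tapbp lies at chr17:33915899-33929292, H2-K1 at chr17:33996017-34000347, H2-D1 at chr17:35262730-35267499 and H2-T23 at chr17:36029773-36032855. B2m lies on chromosome 2 at chr2:122147686-122153083. Tap1 and Psmb9 are annotated on opposite strands with an overlap of 212 bases, and whether the counting used strand was not given in the sources used here, so reads from that overlap cannot be told apart. H2-K1 and H2-D1 are close relatives: 11.1% of the 31-base words in H2-K1 transcripts also occur in H2-D1 transcripts, and 13.8% of those in H2-D1 also occur in H2-K1. The division of reads between these 2 genes is therefore uncertain, and it may also shift with the strain's H2 haplotype.

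**Figure D1:**
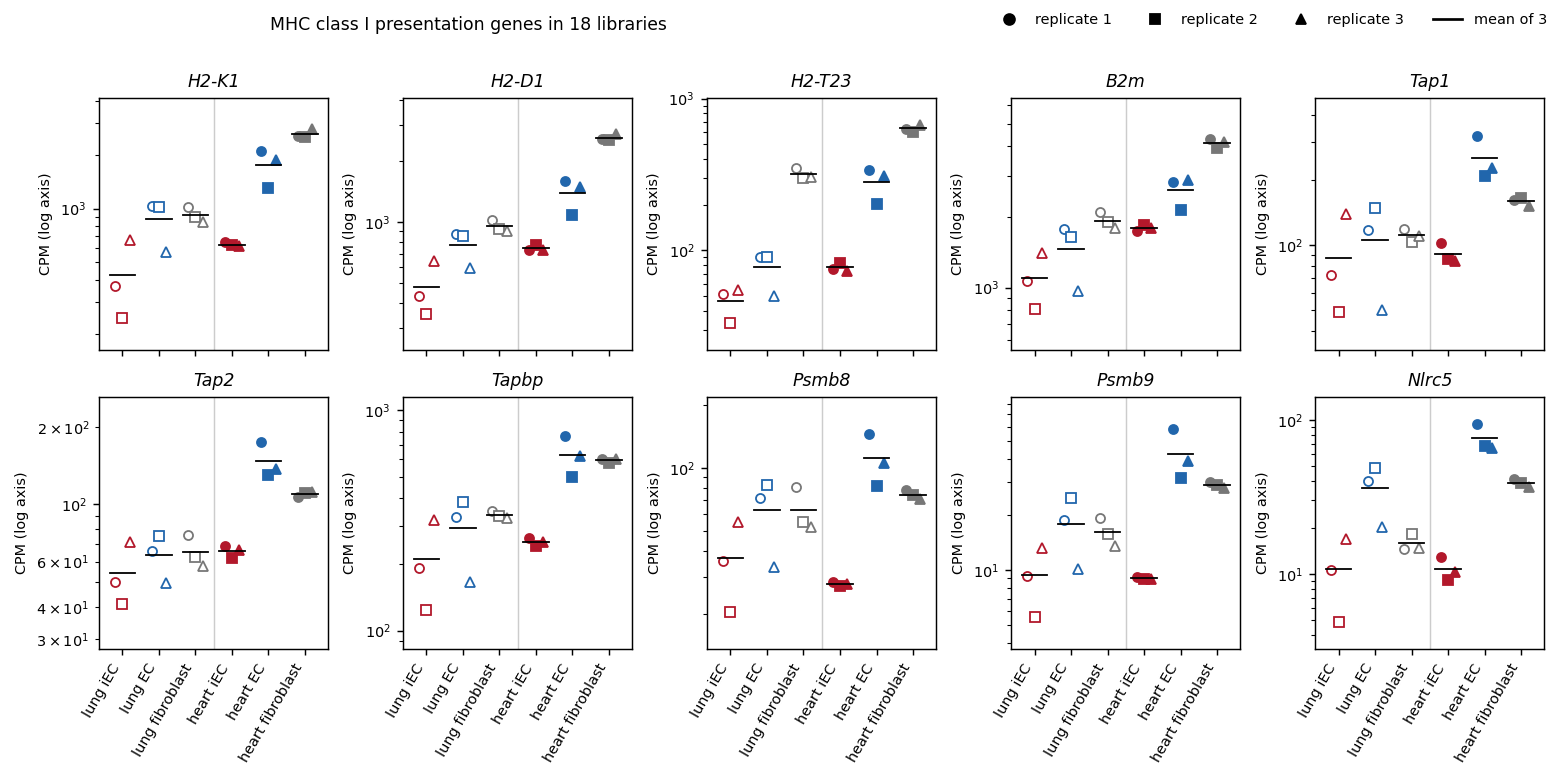
CPM of each of the 10 genes (vertical axes, log scale) in the 3 libraries of each group, with lung groups as open symbols and heart groups as filled symbols and a bar at the mean of 3. Heart iECs sit below heart ECs and heart fibroblasts for every gene, and lung iEC replicate 2 is the lowest lung iEC library in all 10 panels.

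Heart iECs had less class I RNA than either of the other heart groups. In heart iECs 9 of the 10 genes were lower than in heart fibroblasts (edgeR's quasi-likelihood test, Benjamini-Hochberg adjusted p under 0.05 over all 14864 genes tested), against 24.6% of all genes tested called lower in that comparison. The libraries of both groups did not overlap for any of the 10, but how many of all genes were likewise apart was not computed for any comparison. The median log2 change of the 10 was -1.55, and that of all genes tested was 0.02 here and between -0.02 and 0.02 in every comparison. All 10 were lower in heart iECs than in heart ECs, where 24.4% of all genes tested were called lower, with a median of -1.48 and again no overlap. These 2 comparisons share the heart iEC libraries. Other gene lists moved with them. Against heart fibroblasts, heart iECs were lower in 10 of 12 fibroblast and 8 of 10 mesothelial markers. The other 2 mesothelial markers were higher, and the sum of the 10 was higher in heart iECs, as given above. Heart iECs were also higher in 7 of 8 mural markers and 12 of 12 cell cycle genes, where 26.0% of all genes tested were called higher. Against heart ECs they were lower in 6 of 12 fibroblast markers, 8 of 10 mesothelial markers and 11 of 12 cell cycle genes, and higher in 5 of 8 mural markers. Their part in the class I differences was not tested.

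Lung iECs showed fewer such differences. There 4 of the 10 genes were lower than in lung fibroblasts, and 24.7% of all genes tested were called lower, so the share of 4 in 10 stands closer to that of all genes. The 4 were the heavy chains H2-K1, H2-D1 and H2-T23 and the light chain B2m. Of the 10, 5 were lower in lung iECs than in lung ECs, against 23.0% of all genes tested: the 3 heavy chains, Psmb9 and Nlrc5. The lung counts depended on single libraries. Without lung iEC replicate 3, the highest lung iEC library for all 10 genes, 9 were lower than in lung fibroblasts and 9 lower than in lung ECs, and without lung EC replicate 3 the count against lung ECs was 8. It was 3 without lung iEC replicate 1 or replicate 2, and 2 without lung EC replicate 1 or replicate 2. In a fit of the 6 lung iEC and lung EC libraries alone it was 0, by edgeR, with adjusted p-values of 0.0606 for Nlrc5 to 0.145 for Psmb9 among the 5. DESeq2 on all 18 libraries called 5. Macrophage markers differed too, 14 of 16 being lower in lung iECs than in lung ECs, and their part was not tested.

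Native ECs and fibroblasts differed in a few of the genes, and in both directions. In heart ECs Nlrc5 was higher than in heart fibroblasts and H2-D1, H2-T23 and B2m were lower, 1 and 3 of 10 against 24.2% of all genes tested called higher and 23.3% called lower. In lung ECs Nlrc5 was higher than in lung fibroblasts and H2-T23 was lower, 1 and 1 of 10 against 29.3% called higher and 28.7% called lower. Neither share of genes called higher exceeded the background. All 16 macrophage markers were higher in lung ECs than in lung fibroblasts, and fibroblast markers in heart ECs were as given above. Their part in these values was not tested.

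**Figure D2:**
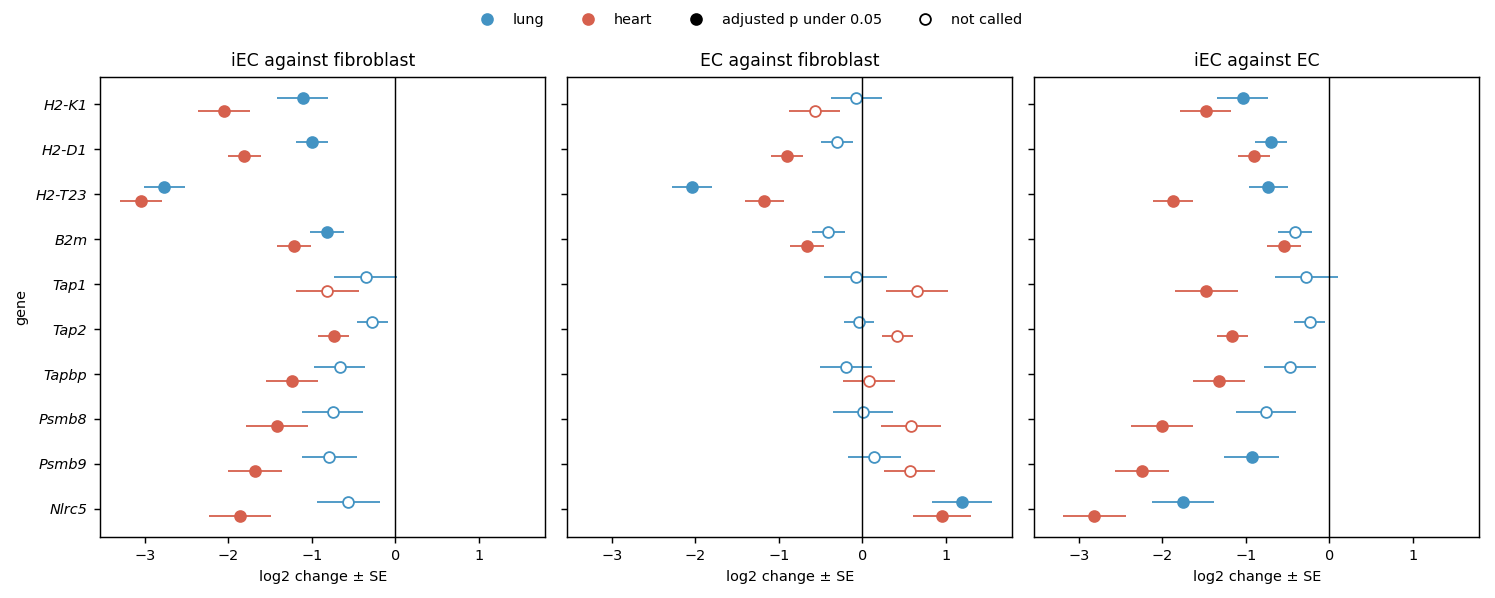
Log2 change with its SE for each gene in lung (blue, upper of each pair) and heart (red, lower of each pair), with one panel each for iECs over fibroblasts, ECs over fibroblasts and iECs over ECs; filled points had an adjusted p under 0.05. Changes between iECs and either other group are negative for all 10 genes in both organs, from -3.05 for H2-T23 in heart iECs against heart fibroblasts to -0.24 for Tap2 in lung iECs against lung ECs.

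H2-K1 encodes one of the classical heavy chains, which bind peptides for CD8 T cells. Its level was 368, 243 and 667 CPM in lung iECs, 1029.7, 1016 and 572 CPM in lung ECs, and 1013, 898 and 841 CPM in lung fibroblasts. Lung EC replicate 3 fell below lung iEC replicate 3, so the iEC and EC libraries overlapped, while all 3 iEC libraries lay below the fibroblasts. The log2 change from lung fibroblasts was -1.11 ± 0.31 (SE, edgeR adjusted p = 0.00808) in lung iECs. Against lung ECs it was -1.04 ± 0.31 (adjusted p = 0.0138), and the adjusted p reached 0.0537 without lung iEC replicate 1, 0.0514 without lung EC replicate 1 and 0.053 without lung EC replicate 2. In heart it was 646, 623 and 614 CPM in iECs, 2101, 1296 and 1865 CPM in ECs, and 2541, 2505 and 2767 CPM in fibroblasts. The 3 heart groups were fully apart, with iECs lowest and fibroblasts highest. Between heart iECs and heart fibroblasts the log2 change was -2.05 ± 0.32 (edgeR adjusted p = 8.84e-05), and between heart iECs and heart ECs it was -1.48 ± 0.31 (adjusted p = 0.00125).

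H2-D1, the other classical heavy chain in the member list, behaved much like H2-K1 between iECs and fibroblasts. In lung it had 432, 352 and 646 CPM in iECs, 879, 854 and 591 CPM in ECs and 1019.9, 928 and 908 CPM in fibroblasts. The heart libraries held 727, 771 and 733 CPM in iECs, 1601, 1079.9 and 1489.6 CPM in ECs and 2563, 2523 and 2725 CPM in fibroblasts. In heart the 3 groups were again fully apart and in the same order as for H2-K1. The log2 change from fibroblasts was -0.998 ± 0.19 in lung iECs (edgeR adjusted p = 0.000436) and -1.81 ± 0.20 in heart iECs (adjusted p = 1.2e-06). In heart ECs it was -0.91 ± 0.19 (adjusted p = 0.00119), whereas for H2-K1 the change of -0.57 ± 0.30 did not pass (adjusted p = 0.141). With H2-K1 and H2-D1 summed into 1 gene, heart ECs were lower than heart fibroblasts by a log2 change of -0.73 (adjusted p = 0.0245). The sum removes the uncertain division of reads between these 2 genes, but not that with other heavy chains. H2-Q7 transcripts, for one, hold 7.46% of the 31-base words of H2-K1 and 8.14% of those of H2-D1. The ratio of H2-K1 to H2-D1 counts was 0.809 to 0.889 in heart iECs, 1.20 to 1.31 in heart ECs and 0.992 to 1.015 in heart fibroblasts, 3 ranges that do not overlap. This ratio rests on the uncertain division of reads between the 2 genes.

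H2-T23 encodes Qa-1, a non-classical class I chain that presents leader peptides of other class I chains to the inhibitory receptor CD94/NKG2A on natural killer cells. It had 51.9, 33.1 and 54.8 CPM in lung iECs, 90.9, 91.0 and 50.1 CPM in lung ECs and 349, 299 and 304 CPM in lung fibroblasts. In heart it had 75.8, 82.7 and 73.0 CPM in iECs, 337, 202 and 309 CPM in ECs and 633, 606 and 673 CPM in fibroblasts. Fibroblasts were highest in both organs, with no overlap with the iECs or ECs of the same organ. This gene had the largest change of the 10 between iECs and fibroblasts, -2.77 ± 0.25 on the log2 scale in lung (edgeR adjusted p = 2.33e-07) and -3.05 ± 0.25 in heart (adjusted p = 7.72e-08). Native ECs were also lower than fibroblasts, by -2.04 ± 0.24 in lung (edgeR adjusted p = 3.29e-06) and -1.17 ± 0.23 in heart (adjusted p = 0.000737). It was the only one of the 10 called lower in ECs than in fibroblasts in both organs.

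B2m encodes beta-2 microglobulin, the invariant light chain that every class I heavy chain needs to fold. Per kilobase of annotated exon it had the highest level of the 10 genes, 1276 CPM per kb in lung iECs and 2087 CPM per kb in heart iECs, and Nlrc5 the lowest, 1.27 CPM per kb in both. B2m libraries held 1073, 814 and 1406 CPM in lung iECs, 1772, 1637 and 968 CPM in lung ECs and 2102, 1899 and 1801 CPM in lung fibroblasts. In heart they held 1745, 1848 and 1793 CPM in iECs, 2828, 2151 and 2868 CPM in ECs and 4295, 3943 and 4199.7 CPM in fibroblasts. Heart iECs lay below both other heart groups and lung iECs below lung fibroblasts, without overlap. The change between iECs and fibroblasts was smaller than for the 3 heavy chains in each organ, -0.82 ± 0.20 in lung (edgeR adjusted p = 0.00311) and -1.21 ± 0.20 in heart (adjusted p = 0.000126). Heart ECs were lower in B2m than heart fibroblasts by -0.66 ± 0.20 (edgeR adjusted p = 0.0131), a call lost without heart EC replicate 2 (adjusted p = 0.0604). Heart iECs were lower in B2m than heart ECs by -0.54 ± 0.20 (edgeR adjusted p = 0.0355). That call was lost in turn without each heart iEC library or without heart EC replicate 1 or 3, with adjusted p-values of 0.0684 to 0.105.

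Because the 3 heavy chains and B2m moved together between iECs and fibroblasts in both organs, the 250 bases before their annotated starts are shown (RefSeq, GRCm38.p6, read 5' to 3' on the gene's strand). For H2-K1 the first of the listed starts was used. The RefSeq starts are not always those of the GENCODE spans given above. The H2-D1 window lies inside the GENCODE span of that gene, and the H2-T23 window lies partly inside its span. The positions of matches therefore depend on the start used. Capitals mark matches, on either strand, to 6 short motifs: GAANNGAAA, the core bound by interferon regulatory factors, the core of the interferon-stimulated response element (ISRE; GAAA, any 2 bases, GAAA), the NF-kB consensus, TGACG, the half-site found in the X2 box of class I promoters, CCAAT, the core of the Y box bound by NF-Y, and GGGCGG, the Sp1 core. The windows lie at chr17:34000348-34000597 for H2-K1 on the minus strand, chr17:35262844-35263093 for H2-D1 on the plus strand, chr17:36032702-36032951 for H2-T23 on the minus strand and chr2:122147437-122147686 for B2m on the plus strand.
H2-K1: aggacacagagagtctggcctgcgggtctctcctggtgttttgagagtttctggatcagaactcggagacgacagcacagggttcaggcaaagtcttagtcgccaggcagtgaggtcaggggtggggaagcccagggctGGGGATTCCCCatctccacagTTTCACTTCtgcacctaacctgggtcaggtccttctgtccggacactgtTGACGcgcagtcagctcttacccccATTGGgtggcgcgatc
H2-D1: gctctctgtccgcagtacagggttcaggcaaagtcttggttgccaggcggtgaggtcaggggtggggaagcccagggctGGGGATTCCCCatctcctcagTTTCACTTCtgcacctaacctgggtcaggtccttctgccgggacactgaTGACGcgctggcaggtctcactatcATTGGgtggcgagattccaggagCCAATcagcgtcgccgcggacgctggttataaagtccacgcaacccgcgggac
H2-T23: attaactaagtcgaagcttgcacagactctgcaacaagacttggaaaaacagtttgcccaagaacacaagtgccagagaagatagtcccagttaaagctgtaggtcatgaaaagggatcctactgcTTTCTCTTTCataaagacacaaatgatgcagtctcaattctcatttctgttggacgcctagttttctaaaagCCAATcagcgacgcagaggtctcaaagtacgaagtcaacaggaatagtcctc
B2m: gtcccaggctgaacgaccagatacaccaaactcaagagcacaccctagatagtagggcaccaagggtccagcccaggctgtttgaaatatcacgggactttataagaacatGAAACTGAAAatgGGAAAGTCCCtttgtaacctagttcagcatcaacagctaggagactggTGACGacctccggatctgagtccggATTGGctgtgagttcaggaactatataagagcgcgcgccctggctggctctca
In H2-K1 and H2-D1 the capitals follow the same order: an NF-kB match, the interferon regulatory factor match TTTCACTTC, then the half-site and a CCAAT match on the other strand. The NF-kB capitals in each are 2 overlapping matches. The GAANNGAAA match begins at position -90 relative to the start of H2-K1 and at -150 relative to that of H2-D1. H2-D1 has a further CCAAT nearer its start. GAANNGAAA occurred in 6.31% of all 32851 promoter windows of this length and the ISRE core in 2.98%. Among the members the first was in H2-K1 and H2-D1, and the second was in B2m, as GAAACTGAAA, and in H2-T23. The NF-kB consensus occurred in 7.25% of all windows and, among the 8 members with a window, in 3: H2-K1, H2-D1 and B2m. TGACG occurred in 17.8% of all windows and in 5 of the 8, CCAAT in 33.8% and in 7 of the 8, and GGGCGG in 32.7% and in 3 of the 8. A match describes these letters only and does not show that a factor bound there.

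Tap1 and Tap2 form the transporter that carries peptides from the cytosol into the endoplasmic reticulum. Tap1 had 72.5, 49.0 and 139 CPM in lung iECs, 117, 148 and 50.2 CPM in lung ECs and 119, 104 and 110.3 CPM in lung fibroblasts. The lung iEC and EC libraries each spanned the whole range of the lung fibroblasts. In heart Tap1 had 102, 85.9 and 83.9 CPM in iECs, 320.1, 208 and 227 CPM in ECs and 162, 165 and 152 CPM in fibroblasts. Heart ECs were highest, without overlap, which sets Tap1 apart in its order from the heavy chains and B2m, for which heart fibroblasts were highest. Heart iECs were lower in Tap1 than heart ECs by -1.47 ± 0.38 (edgeR adjusted p = 0.0059), and their change from heart fibroblasts of -0.82 ± 0.38 was the only one of the 10 that did not pass (adjusted p = 0.0898). With DESeq2 the change from heart fibroblasts had an adjusted p of 0.0489.

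Tap2 followed the same order in heart, with 69.2, 61.7 and 66.4 CPM in iECs, 174, 130.4 and 137 CPM in ECs and 107, 111 and 112 CPM in fibroblasts. The heart groups did not overlap. The change of heart iECs was called both from heart fibroblasts (-0.74 ± 0.18, edgeR adjusted p = 0.00296) and from heart ECs (-1.16 ± 0.18, adjusted p = 6.92e-05). For each gene the SE rests on the spread over all 6 groups. The highest over the lowest library of Tap2 was 1.12 in heart iECs and 1.05 in heart fibroblasts, against 1.22 and 1.09 for Tap1. In lung it was 1.73 in iECs and 1.52 in ECs for Tap2, against 2.84 and 2.96 for Tap1. In lung Tap2 had 50.0, 41.2 and 71.5 CPM in iECs, 66.2, 75.7 and 49.7 CPM in ECs and 76.1, 62.7 and 57.8 CPM in fibroblasts, and no lung comparison passed.

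Tapbp encodes tapasin, which tethers class I chains to the transporter. It had 193, 124 and 317 CPM in lung iECs, 329.5, 382 and 166 CPM in lung ECs and 349, 331 and 326 CPM in lung fibroblasts. In heart it had 262, 242 and 252 CPM in iECs, 767, 499.6 and 620.3 CPM in ECs and 599, 579 and 604 CPM in fibroblasts. Heart iECs lay far below both other heart groups, which overlapped each other. The change of heart iECs was -1.24 ± 0.31 from heart fibroblasts (edgeR adjusted p = 0.00469) and -1.32 ± 0.31 from heart ECs (adjusted p = 0.00323). That of lung iECs from lung fibroblasts, -0.67 ± 0.31, had an adjusted p of 0.0917 by edgeR, and of 0.0074 without lung iEC replicate 3. Replicate 3 was the highest lung iEC library, so leaving it out lowers the iECs by construction and gives no separate support.

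Psmb8 and Psmb9 replace the catalytic subunits Psmb5 and Psmb6 in the immunoproteasome, which changes the peptides that are cut. Psmb8 had 36.0, 20.4 and 55.2 CPM in lung iECs, 72.1, 83.0 and 33.6 CPM in lung ECs and 80.6, 55.0 and 52.1 CPM in lung fibroblasts. In heart it had 28.5, 27.1 and 27.7 CPM in iECs, 146, 82.1 and 105 CPM in ECs and 78.1, 73.9 and 70.7 CPM in fibroblasts. The heart iECs were nearly identical to one another and below all other heart libraries, while the lung groups overlapped. Their log2 change was -1.42 ± 0.37 from heart fibroblasts (edgeR adjusted p = 0.00574) and -1.999 ± 0.37 from heart ECs (adjusted p = 0.000565).

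Psmb9 had 9.30, 5.59 and 13.2 CPM in lung iECs, 18.6, 24.6 and 10.1 CPM in lung ECs and 19.2, 15.7 and 13.5 CPM in lung fibroblasts. In heart it had 9.19, 8.97 and 8.94 CPM in iECs, 57.9, 31.5 and 39.0 CPM in ECs and 30.0, 28.8 and 28.0 CPM in fibroblasts. The order of the heart groups was that of Psmb8, without overlap. Heart iECs were lower by -1.68 ± 0.32 than heart fibroblasts (edgeR adjusted p = 0.000566) and by -2.25 ± 0.33 than heart ECs (adjusted p = 4.83e-05). Lung iECs were lower than lung ECs by -0.93 ± 0.33 (adjusted p = 0.0307), a call lost without lung iEC replicate 1 (adjusted p = 0.0741) or 2 (adjusted p = 0.122), or lung EC replicate 1 (adjusted p = 0.0713) or 2 (adjusted p = 0.158).

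Psmb9 and Tap1 are transcribed away from each other from one short stretch, so their windows overlap. The shared 225 bases, at chr17:34187331-34187555 in RefSeq's GRCm38.p6 and read on the plus strand, are shown because both genes had heart ECs highest and heart iECs lowest of the heart groups. Capitals mark the motifs listed above.
Tap1-Psmb9: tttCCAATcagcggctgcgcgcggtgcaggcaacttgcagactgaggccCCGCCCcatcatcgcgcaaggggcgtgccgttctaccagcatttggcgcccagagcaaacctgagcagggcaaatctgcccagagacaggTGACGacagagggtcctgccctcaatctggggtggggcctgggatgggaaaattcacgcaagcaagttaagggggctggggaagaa
The stretch held, in this order, 1 CCAAT, 1 Sp1 core on the other strand and 1 X2 half-site, and these letters held no match to GAANNGAAA, the ISRE core or the NF-kB consensus.

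The ratio of an inducible subunit to the constitutive subunit that it replaces does not depend on library scaling. Psmb8 over Psmb5 counts gave 0.241 to 0.539 in lung iECs, 0.351 to 0.78 in lung ECs and 0.753 to 0.934 in lung fibroblasts, and 0.329 to 0.361 in heart iECs, 1.20 to 1.80 in heart ECs and 0.993 to 1.38 in heart fibroblasts. Psmb9 over Psmb6 gave 0.0701 to 0.123 in lung iECs, 0.118 to 0.208 in lung ECs and 0.213 to 0.25 in lung fibroblasts, and 0.131 to 0.14 in heart iECs, 0.467 to 0.783 in heart ECs and 0.475 to 0.517 in heart fibroblasts. For both pairs the iEC ratios lay below all fibroblast ratios in each organ, and in heart below all EC ratios. Psmb10, the third inducible catalytic subunit, over its counterpart Psmb7 gave the same order in heart iECs and ECs, 0.16 to 0.23 and 0.992 to 1.33, against 0.464 to 0.548 in heart fibroblasts. Over 27 two-sided exact permutation tests of log2 ratios, 3 libraries against 3 cannot give a p below 0.1, and the smallest adjusted p was 0.15. Psmb5 itself had 76.7 to 82.5 CPM in heart iECs, 68.5 to 80.7 CPM in heart ECs and 56.8 to 71.2 CPM in heart fibroblasts.

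**Figure D3:**
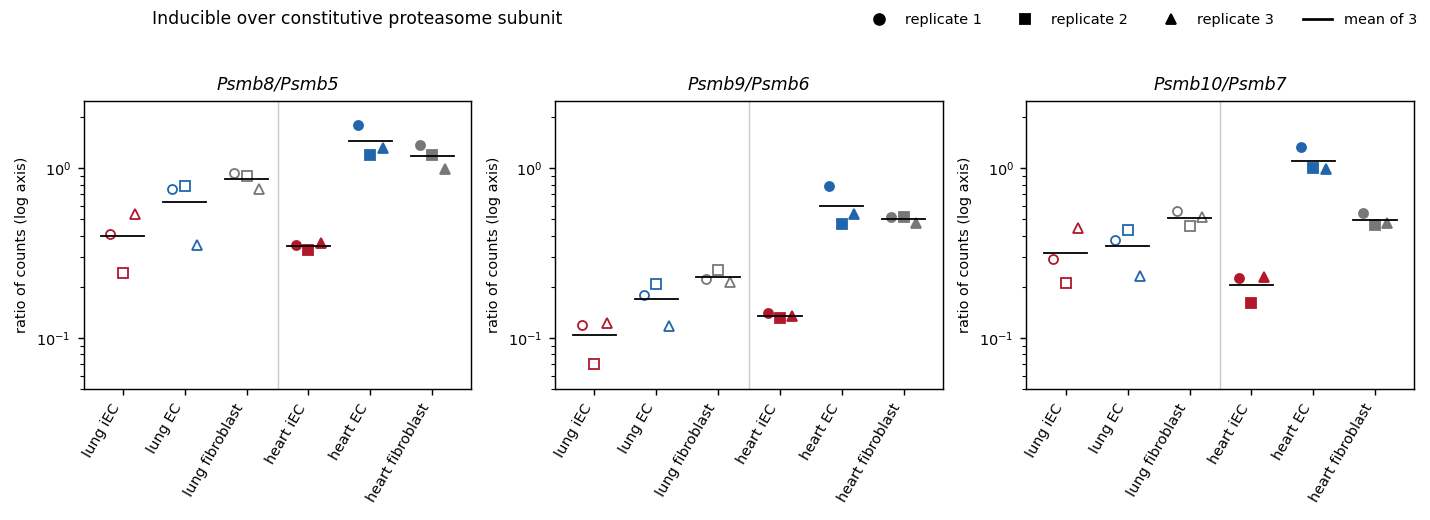
Ratio of counts of each inducible proteasome subunit to the constitutive subunit it replaces (log axes) in each library, with a bar at the mean of 3. Heart iECs lie below heart ECs and heart fibroblasts in all 3 panels, for Psmb8 over Psmb5 at 0.329 to 0.361.

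Nlrc5 encodes a transactivator of class I genes, the counterpart of the class II transactivator Ciita. It had 10.6, 4.90 and 16.8 CPM in lung iECs, 39.8, 48.8 and 20.1 CPM in lung ECs and 14.5, 18.2 and 14.9 CPM in lung fibroblasts. In heart it had 12.9, 9.18 and 10.3 CPM in iECs, 93.7, 67.6 and 66.1 CPM in ECs and 41.5, 39.2 and 36.6 CPM in fibroblasts. Native ECs were highest in both organs, without overlap with either other group, and it was the only one of the 10 genes called higher in ECs than in fibroblasts. Its change between ECs and fibroblasts was 1.19 ± 0.36 in lung (edgeR adjusted p = 0.0118) and 0.96 ± 0.35 in heart (adjusted p = 0.0366). The lung call was lost without lung EC replicate 2 (adjusted p = 0.0596). The heart call was lost without heart EC replicate 1 or 2 or without any 1 of the 3 heart fibroblast libraries, with adjusted p-values of 0.051 to 0.13. The change between iECs and ECs was the largest of the 10 in each organ, -1.76 ± 0.37 in lung (edgeR adjusted p = 0.0016) and -2.82 ± 0.38 in heart (adjusted p = 3.02e-05). Heart iECs were also lower in Nlrc5 than heart fibroblasts, by -1.86 ± 0.37 (adjusted p = 0.000857).

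Between organs, most of the 10 genes were lower in lung for fibroblasts and native ECs, and fewer for iECs. Lung fibroblasts were lower than heart fibroblasts in 8 of 10 genes, against 23.9% of all genes tested called lower, with a median log2 change of -0.93. Tap1 (-0.52 ± 0.38, edgeR adjusted p = 0.276) and Psmb8 (-0.25 ± 0.36, adjusted p = 0.602) did not pass. The calls of Tapbp (-0.82 ± 0.31, adjusted p = 0.0425) and Psmb9 (-0.85 ± 0.31, adjusted p = 0.0386) did not hold: Tapbp lost its call in all 6 fits that left out 1 library (adjusted p = 0.0754 to 0.0994) and Psmb9 in 5 of 6 (0.0675 to 0.124 in those). Lung ECs were lower than heart ECs in 9 of 10, against 23.7% called lower, with a median of -1.09 and changes from -1.87 ± 0.24 for H2-T23 to -0.82 ± 0.36 for Psmb8, which did not pass (adjusted p = 0.0754). Without heart EC replicate 1 the calls of H2-K1 (adjusted p = 0.0574), Tap1 (0.0591) and Nlrc5 (0.0818) were lost, and without lung EC replicate 3 those of H2-K1 (0.0584) and Nlrc5 (0.0655). Lung iECs were lower than heart iECs in H2-D1 (-0.64 ± 0.19, edgeR adjusted p = 0.0151), H2-T23 (-0.73 ± 0.23, adjusted p = 0.023) and B2m (-0.71 ± 0.20, adjusted p = 0.011), 3 of 10 against 18.9% called lower. That count was 1 without lung iEC replicate 2 and 5 without lung iEC replicate 3. Macrophage markers moved the opposite way, with 15 of 16 higher in lung than in heart fibroblasts, 16 of 16 in iECs and 15 of 16 in ECs. Of all genes tested 24.6%, 18.9% and 24.2% were called higher in those comparisons. The part of macrophage markers in these differences was not tested.

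The size of the iEC response in lung and heart was compared directly, as the difference of the changes (lung minus heart). For iECs against fibroblasts, 1 of 10 genes differed, H2-D1, whose fall was smaller in lung by 0.81 ± 0.27 on the log2 scale (edgeR adjusted p = 0.0388), and 12.6% of all genes tested were called in that direction. For iECs against ECs, 3 of 10 differed, again with smaller falls in lung, against 13.8% of all genes tested: H2-T23 by 1.14 ± 0.33 (adjusted p = 0.0186), Tap2 by 0.92 ± 0.26 (adjusted p = 0.0146) and Psmb9 by 1.31 ± 0.45 (adjusted p = 0.0469). For ECs against fibroblasts, edgeR called 0 of 10, where 16.2% of all genes tested were called higher and 18.3% lower. At an unadjusted p under 0.05 there was 1 gene in each direction, H2-D1 at 0.61 ± 0.27 and H2-T23 at -0.86 ± 0.32, and DESeq2 called these same 2. The call of H2-D1 was lost when any 1 of 10 libraries was left out, with adjusted p-values of 0.0597 to 0.0936, and held without lung iEC replicate 1 or replicate 2. That of Psmb9 had adjusted p-values of 0.0602 to 0.135 in 9 fits that left out 1 library. Without lung iEC replicate 2 the number of genes that differed was 3 for iECs against fibroblasts and 7 for iECs against ECs. The calls of Tap2 and H2-T23 held in every fit that left out 1 library, and that of H2-T23 had an adjusted p of 0.0507 with both lung EC replicate 3 and lung iEC replicate 3 left out.

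In lung iECs, lung ECs and, for 9 of the 10 genes, heart ECs and lung fibroblasts, one library stood above or below its group mates across the class I genes. The order was less common in the other heart groups: heart iEC replicate 1 was the highest for 7 genes, and no heart fibroblast library was highest or lowest for more than 5. The ratio of the highest to the lowest library within a group ranged over the 10 genes from 1.66 to 3.43 in lung iECs, 1.49 to 2.96 in lung ECs and 1.07 to 1.55 in lung fibroblasts, and from 1.03 to 1.40 in heart iECs, 1.33 to 1.84 in heart ECs and 1.04 to 1.13 in heart fibroblasts. Lung iEC replicate 2 was the lowest and replicate 3 the highest of its group for all 10 genes. Lung EC replicate 3 was the lowest for all 10, and heart EC replicate 1 and lung fibroblast replicate 1 were each the highest for 9. The same libraries stood out in 24 interferon-stimulated genes, a list that holds none of the 10: lung iEC replicate 2 was lowest and replicate 3 highest in 24 of 24, lung EC replicate 3 lowest in 24 of 24, and heart EC replicate 1 highest in 24 of 24. In that list lung fibroblast replicate 1 was highest in 18, heart iEC replicate 1 highest in 22 and heart fibroblast replicate 3 lowest in 19. Constitutive proteasome genes showed these shifts as well: lung EC replicate 3 was lowest in 17 of 17, lung iEC replicate 3 highest in 16 of 17 and heart EC replicate 1 and lung fibroblast replicate 1 each highest in 15 of 17, while lung iEC replicate 2 was lowest in 11 of 17. The shifts were thus not limited to class I and interferon-stimulated genes. Over all genes, counts of lung EC replicate 3 differed from those of its group mates 46.3 and 68.7 times as much as counting error gives (chi-squared per degree of freedom), against 9.98 between the other two. For lung iEC replicate 3 the values were 24.1 and 42.6, against 9.58, and for lung fibroblast replicate 1 they were 49.6 and 36.0, against 7.07. With both lung EC replicate 3 and lung iEC replicate 3 left out, a choice made after seeing the data, lung iECs were lower than lung fibroblasts in all 10 genes, lower than lung ECs in all 10, and lower than heart iECs in 7. Leaving out the highest iEC and the lowest EC library lowers iECs and raises ECs by construction, so these counts are no separate support. Lung fibroblast replicate 1 was kept, and the share of all genes called in that fit is not given here. In that fit Psmb9 had a log2 change of -1.12 from lung fibroblasts (edgeR adjusted p = 0.00245) and Tap1 one of -0.87 (adjusted p = 0.00167).

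**Figure D4:**
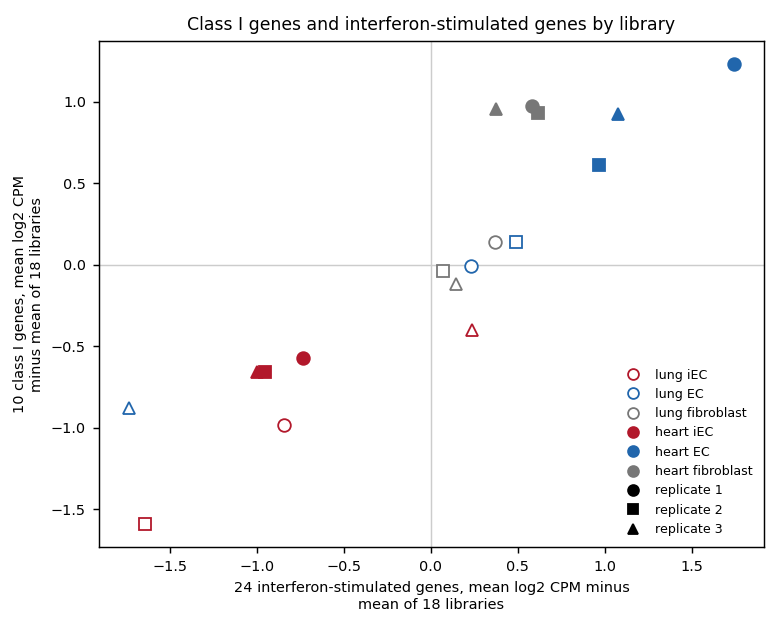
Mean log2 CPM of the 10 class I genes (vertical axis) against that of 24 interferon-stimulated genes (horizontal axis) in each library, each as the difference from the mean of 18 libraries. On the class I axis lung iEC replicate 2 is lowest (-1.59) and heart EC replicate 1 highest (1.23), lung EC replicate 3 is lowest on the other axis (-1.74), and heart fibroblasts lie at 0.93 to 0.97 on the class I axis with interferon-stimulated genes at 0.38 to 0.62.

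The interferon-stimulated genes had most calls in heart iECs against heart ECs. In heart iECs 21 of 24 were lower than in heart ECs, among them Cxcl10, a chemokine for T cells, at 13.1 to 13.6 CPM in heart iECs and 162 to 483 CPM in heart ECs (-4.48 ± 1.06, edgeR adjusted p = 0.0035). For all genes tested the share called lower there was 24.4%. In lung iECs 7 of 24 were lower and 1 higher than in lung fibroblasts, a share near the 24.7% of all genes called lower, and in heart iECs 11 of 24 were lower than in heart fibroblasts, against 24.6%. Between lung and heart ECs 14 of 24 were lower in lung, against 23.7%. In lung iECs against lung ECs, where 5 of the 10 class I genes were called lower, edgeR called 0 of 24, with 1 lower at an unadjusted p under 0.05 and 1 lower by DESeq2. Between lung and heart fibroblasts, where 8 of the 10 class I genes were called lower, edgeR called 0 of 24, with 2 lower at an unadjusted p under 0.05 and, by DESeq2, 2 lower and 1 higher. There the median log2 change of the 24 was -0.39, against -0.93 for the 10 class I genes. In heart ECs 5 of 24 were higher than in heart fibroblasts, a share near the 24.2% of all genes called higher. The part of interferon signalling in the class I differences was not tested. Transcripts of interferon gamma (Ifng) were listed at 0 in all 18 libraries, and Ifnb1 reached at most 1.08 CPM, in heart EC replicate 1. A list of 8 interferon ligand genes, Ifng among them, summed to 19.6, 8.64 and 54.6 CPM in lung iECs. It summed to 96.1, 63.97 and 29.8 CPM in lung ECs and to 4.79 to 7.16 CPM in lung fibroblasts. The sum had a mean of 8.51 CPM in heart ECs and reached at most 1.24 CPM in heart iECs and 2.25 CPM in heart fibroblasts. Only 2 of these genes passed the filter, and both were called higher in lung iECs and in lung ECs than in lung fibroblasts, against 25.9% and 29.3% of all genes tested.

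Of 19 regulators of class I transcription 13 were lower and 4 higher in heart iECs than in heart ECs, against 24.4% and 24.5% of all genes tested. The other comparisons of iECs had fewer calls, near or below the shares of all genes. In lung iECs 3 were lower and 3 higher than in lung fibroblasts, against 24.7% and 25.9% of all genes tested. In heart iECs 5 were lower and 4 higher than in heart fibroblasts (median log2 change -0.08), against 24.6% and 26.0%. Compared with lung ECs, 3 were lower in lung iECs, against 23.0%. Irf1, an interferon-induced factor that acts at class I promoters, had 30.6, 32.7 and 32.7 CPM in heart iECs, 142, 103 and 104 CPM in heart ECs and 65.4, 64.3 and 60.4 CPM in heart fibroblasts, which is the order of Psmb8, Psmb9 and Nlrc5 in heart. It was lower in heart iECs by -1.87 ± 0.31 than in heart ECs (edgeR adjusted p = 0.000189) and by -0.99 ± 0.30 than in heart fibroblasts (adjusted p = 0.0149). In lung its values of 36.8, 25.4 and 69.9 CPM in iECs, 58.0, 51.7 and 32.6 CPM in ECs and 74.5, 56.4 and 53.1 CPM in fibroblasts overlapped, and no comparison between lung groups passed.

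Other class I heavy chains were called lower in iECs, in heart more of them than in lung. Of 12 on the list 9 passed the filter, and heart iECs were lower than heart fibroblasts in 8 of these and lower than heart ECs in 8, against 24.6% and 24.4% of all genes tested. Against lung fibroblasts 4 of 9 were lower in lung iECs, and against lung ECs 5 of 9, against 24.7% and 23.0%. In heart ECs 1 of 9 was lower than in heart fibroblasts, against 23.3% of all genes tested, and the median log2 change was 0.34. In lung ECs 2 of 9, H2-Q6 and H2-M2, were higher than in lung fibroblasts, against 29.3%. H2-Q6 had 6.17, 2.71 and 20.2 CPM in lung iECs, 103, 89.5 and 31.4 CPM in lung ECs and 15.9, 12.98 and 8.71 CPM in lung fibroblasts. It shares 18.4% of its 31-base words with H2-Q7 and 24.6% with H2-Q4, so its reads may be divided among them. H2-M2 had 5.41, 0.645 and 20.6 CPM in lung iECs. In lung ECs it had 40.2, 70.9 and 4.84 CPM, against 1.60, 0.862 and 0.677 CPM in lung fibroblasts (5.24 ± 1.24, edgeR adjusted p = 0.0039), with the lowest EC value again in replicate 3.

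Of 17 constitutive proteasome genes 2 were higher in heart iECs than in heart fibroblasts, against 26.0% of all genes tested, with a median log2 change of 0.14, against -1.55 for the 10 class I genes. In lung iECs 4 were higher and 1 lower than in lung fibroblasts, against 25.9% and 24.7%. Native ECs had more of them higher than fibroblasts, 8 of 17 in lung and 10 of 17 in heart, against 29.3% and 24.2% of all genes tested. Between heart iECs and heart ECs 6 of 17 were lower in iECs, against 24.4%. Heart iECs had 2 of 9 loading and trimming genes higher than heart fibroblasts and 2 lower, against 26.0% and 24.6%. The lower ones were Tapbpl, a relative of tapasin (-0.76 ± 0.19, edgeR adjusted p = 0.0029), and Erap1, which trims peptides to length (-0.57 ± 0.16, adjusted p = 0.0081). In lung iECs 6 of these 9 were lower than in lung fibroblasts, against 24.7% of all genes tested, led by the chaperone Calr at -0.71 ± 0.09 (adjusted p = 3.2e-06). Of the 3 inducible proteasome genes outside the members, Psmb10 and the proteasome activator subunits Psme1 and Psme2, heart iECs were lower than heart fibroblasts in 2 and lower than heart ECs in 3. Of all genes tested 24.6% and 24.4% were called lower in those comparisons. The change of Psme2 from heart fibroblasts, -0.36 ± 0.26, did not pass (edgeR adjusted p = 0.277). In heart ECs Psmb10 and Psme2 were higher than in heart fibroblasts, where Psmb8 and Psmb9 were not called. Psmb10 had 22.6, 16.5 and 21.8 CPM in heart iECs, 146, 98.8 and 108 CPM in heart ECs and 44.1, 41.5 and 41.2 CPM in heart fibroblasts, and heart iECs were lower by -1.06 ± 0.35 than heart fibroblasts (adjusted p = 0.0223) and by -2.54 ± 0.36 than heart ECs (adjusted p = 5.22e-05).

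MHC class II genes, which present to CD4 T cells, stayed low. Their 11 genes summed to 30.9 to 35.3 CPM in lung iECs, 25.2 to 29.4 CPM in lung ECs and 17.7 to 22.4 CPM in lung fibroblasts, and to at most 19.4 CPM in any heart library. H2-Aa, a class II alpha chain, was higher in iECs, with 5.12, 5.46 and 7.04 CPM in lung iECs, against 0.0973, 0 and 0.167 CPM in lung ECs (5.98 ± 0.64, edgeR adjusted p = 1.11e-06). In heart it had 1.69, 1.42 and 3.50 CPM in iECs, against 0.179, 0.0549 and 0.111 CPM in ECs (4.15 ± 0.64, adjusted p = 4.88e-05).

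The list of ligands that natural killer and T cells read beside class I had 9 genes tested, with calls in both directions. Against heart fibroblasts, heart iECs had 6 of the 9 called higher and 1 lower, with a median log2 change of 0.71. Of all genes tested 26.0% and 24.6% were called there. Against heart ECs the calls were 2 higher and 4 lower, where the shares of all genes were 24.5% and 24.4%. Among the 9, Cd274 (PD-L1, which restrains T cells) was low in heart iECs, at 8.03, 6.92 and 4.62 CPM. Its level in heart ECs was 130, 77.9 and 65.1 CPM (-3.81 ± 0.69 for heart iECs against heart ECs, edgeR adjusted p = 0.00051). Its heart fibroblast libraries held 14.2, 19.3 and 15.2 CPM. In lung it had 29.4, 19.0 and 89.7 CPM in iECs and 120, 147 and 27.0 CPM in ECs, so replicate 3 was the highest iEC and the lowest EC library, as for the class I genes.

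Genes similar to the 10 were sought among the genes tested, leaving out those with a provisional or pseudogene symbol or no symbol. The genes whose profile over the 18 libraries was most like the mean profile of the 10 were H2-T22 (Pearson r = 0.983), Tmem140 (0.971), Ifi205 (0.97), Ifit3b (0.97), Tent4a (0.969), H2-Q4 (0.967), H2-T10 (0.966) and Gbp6 (0.961). Ranked by Spearman's rho instead, they stood from rank 1 for H2-T22 to rank 40 for H2-Q4. By Pearson's r over 6 group means they stood from rank 1 for Tmem140 to rank 50 for H2-Q4. These are descriptions over libraries that share 6 groups. Within the member list, the r of each gene with the mean of the other 9 ranged from 0.834 for H2-T23 to 0.99 for Tapbp. H2-T22, another class I heavy chain, had 107, 90.3 and 92.3 CPM in heart iECs, 518, 264 and 396 CPM in heart ECs and 331, 307 and 320.2 CPM in heart fibroblasts, which again set the heart iECs apart.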

How the data were processed

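RNA was extracted with an RNeasy mini kit and sequenced as mRNA by Novogene, per the labels' protocols. The authors deposited a table of estimated counts per gene, all of them whole numbers. The tools were Salmon and DESeq2 and the build was mm10, per the submitters' processing notes, which give no role or version here. How transcripts were summed to genes and whether strand was used were not given in the sources used here.

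Gene IDs were matched to symbols by a reference annotation. Low genes were removed with filterByExpr, leaving 14864 genes with 99.969% of the counts. One edgeR (4.0.16, limma 3.58.1, R 4.3.3) quasi-likelihood model with 6 group means, TMM scaling and 12 residual degrees of freedom gave each comparison. P-values were adjusted by Benjamini-Hochberg over all genes tested, at a threshold of 0.05, and the SE is the log2 change divided by the root of F. The recovery of known changes was tested on simulated data. CPM values use TMM-scaled totals, a choice made after seeing TMM factors of 0.889 to 1.11. Without TMM the median of all genes shifted by up to 0.18 on the log2 scale.

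Alternatives were RLE scaling, 2 filters, fits of the compared groups alone, a replicate block, a test against a log2 change of 1, H2-K1 and H2-D1 summed, DESeq2 (1.42.0) and leaving out each library. The fits without TMM and without both lung replicates 3 were added after seeing the data, as was the ISRE motif. The 10 genes and the gene lists were chosen with earlier results of these data known. All 10 genes were named, other genes by the largest called changes in each list, and similar genes by Pearson's r over 18 libraries. One regulator is not reported here.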

Additional observations from a re-analysis of the deposited data

Results flagged for a closer look

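Each of 4 genes was singled out because its change between groups differed between lung and heart in a test of that difference. For iECs against fibroblasts, the change of H2-D1 was higher in lung than in heart by 0.81 on the log2 scale. For iECs against ECs, the lung change was higher than the heart change by 1.14 for H2-T23, 0.924 for Tap2 and 1.31 for Psmb9.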

How the results depend on the processing

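Counts below are of the 10 genes. Tested against a log2 change of 1, the number lower was 1 for lung iECs and 4 for heart iECs against fibroblasts, 0 for heart ECs against fibroblasts, 0 for lung iECs and 4 for heart iECs against ECs, and, for lung against heart, 1 in fibroblasts, 0 in iECs and 1 in ECs; Nlrc5 was then not called higher in ECs of either organ (0), and 0 genes differed between organs. The 1 gene higher in heart ECs than in heart fibroblasts became 0 with no filter, 0 with the replicate block, 3 with the compared groups alone, 2 with DESeq2 and 2 without TMM. Leaving out both lung replicates 3 gave 10 lower in lung iECs against fibroblasts, 10 against ECs, 7 against heart iECs, and 3 higher and 1 higher organ differences for ECs against fibroblasts and iECs against ECs. The libraries left out there were the highest lung iEC and the lowest lung EC library for all 10 genes, so iECs fall and ECs rise by construction. With the compared groups alone, lung iECs against ECs had 0 lower and their organ difference 1. The organ difference for iECs against fibroblasts was 0 with no filter, 0 with the replicate block, 0 with H2-K1 and H2-D1 summed and 2 with DESeq2. That for ECs against fibroblasts was 1 higher and 1 lower with DESeq2, 1 lower with the 5 CPM filter and 1 lower without TMM.

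Leaving out 1 library at a time gave 4 to 9 lower for lung iECs against fibroblasts, 2 to 9 against ECs and 1 to 5 against heart iECs, 0 to 1 higher for ECs against fibroblasts in lung and in heart, 1 to 2 lower in lung, and organ differences of 0 to 3 for iECs against fibroblasts, 2 to 7 for iECs against ECs, and 0 to 1 in each direction for ECs against fibroblasts. The log2 ratio difference ranged from -0.142 to 0.439 for Psmb8 over Psmb5 in lung against heart iECs, from -0.435 to 0.0986 for Psmb10 over Psmb7 in lung iECs against ECs, and from -0.0358 to 0.116 for it in lung against heart fibroblasts. The cause was not tested. Same-numbered libraries correlated at -0.40 to 0.12 in their deviations. The lowest values, -0.40 for replicates 3 and -0.30 for replicates 2, were between lung iECs and lung ECs. With 3 libraries per group these values cannot tell whether same-numbered libraries shared a source. The replicate block ended 4 calls. RLE scaling kept every count within 1.5 times.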
